A study of Mus musculus with 6 samples.

Results

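The mTORC1 complex and its TSC-Rheb regulators were examined in cells labelled as CD4 T cells, with and without the catalytic AMPK subunit Prkaa1. The 10 genes were chosen by name, as mTOR pathway genes that lie downstream of AMPK, and were Mtor, Rptor, Rictor, Akt1s1, Deptor, Tsc1, Tsc2, Rheb, Lamtor1 and Rps6kb1. All 10 were found among the 23282 lines of every library, and all 10 were among the 11279 genes whose mean log2 value was at least 1 and which were therefore tested. AMPK KO cells were compared with WT cells, with 3 samples in each group. WT cells were Prkaa1fl/fl without Cre (CD4Cre-neg), and AMPK KO cells were Prkaa1fl/fl with CD4Cre, so that both groups carried the floxed Prkaa1 gene and differed in the Cre transgene. Cre driven by the Cd4 promoter is active in the T cell lineage, including cells that become CD8 T cells, from a stage in the thymus onward, and cells of other lineages keep Prkaa1. The mice were on the C57BL/6 strain and per the study's methods female and 6 to 8 weeks old. T cells from spleen and lymph nodes rested for 1 h in RPMI-1640 and were then stimulated with antibodies to CD3 and CD28 at 2 µg/mL. The labels give 24 h of stimulation and the methods 6 h. The samples are named as biologically independent in the study, but no label ties them to single animals, so the p values measure the spread between these samples.

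mTOR is a kinase that works in a pair of complexes. In mTORC1 it is joined by Raptor (Rptor), which presents substrates, and in mTORC2 by Rictor, which is required for the phosphorylation of AKT. The TSC1-TSC2 complex keeps the small GTPase RHEB in its inactive form, and RHEB bound to GTP switches mTORC1 on at the lysosome. When energy is low, AMPK restrains mTORC1 by phosphorylating TSC2 and Raptor. In T cells mTORC1 is turned on by antigen receptor and CD28 signals and drives growth and protein synthesis. These controls act on proteins, whereas only transcripts were measured here.

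The libraries were QuantSeq libraries, which read the 3′ ends of transcripts, and each value is the log2 of the TMM-normalized CPM, that is, reads scaled to a common library size, plus 1. Depth was 9575096 to 10168121 reads for WT and 10515155 to 11185360 for AMPK KO, and ribosomal precursor reads (Rn45s) made up 22.4% ± 2.21 and 9.89% ± 1.24 of them (SD, n = 3 each). Prkaa1 had log2 values of 4.64, 5.24 and 4.86 in WT and 4.08, 4.72 and 4.67 in AMPK KO, the groups overlapped, and its log2 fold change was -0.43 (SE 0.25, adjusted p = 0.357), or -0.56 (without WT 1) to -0.22 (without AMPK KO 1) with 1 library left out. Cre removes the sequence between the loxP sites, and reads from the 3′ end of the gene do not by themselves check that deletion. Reads of the antisense gene Gm15938, which overlaps the last exon of Prkaa1, could not be separated, as the strand used in counting is not given in the sources used here. Xist had 8 to 32 reads in the libraries labelled WT and 1998 to 2876 in those labelled AMPK KO, and the Y-linked gene Ddx3y had 3158 to 3462 and 1296 to 1840, so Y-linked reads were present in all 6 libraries although the mice are described as female. This difference runs along the groups and cannot be told apart from the genotype. After the group means were removed, libraries WT 1, WT 3 and AMPK KO 2 deviated together, as did WT 2, AMPK KO 1 and AMPK KO 3, so the differences within these sets are given for all 10 genes.

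None of the 10 genes passed the adjusted threshold of 0.05 in the limma test across all genes, where 5.65% of the genes tested passed (637 of 11279, with 3.10% lower and 2.54% higher in AMPK KO). Of the 10, 3 had an unadjusted p under 0.05 (Rictor, Tsc1 and Rps6kb1), against 21.3% of all genes tested. By limma voom on the recovered reads, 0 of the 10 passed as well. The groups did not overlap for 4 genes, namely Rictor, Tsc1 and Rps6kb1, which were lower in AMPK KO, and Rheb, which was higher, and 25.6% of all genes tested had groups that did not overlap (14.0% lower and 11.6% higher). With 10 genes, these counts do not stand apart from the background shares. The estimate was below 0 for 8 of the 10 genes, against 48.8% of all genes tested, and the median log2 fold change was -0.31, against 0.02 over all genes tested.

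**Figure D1:**
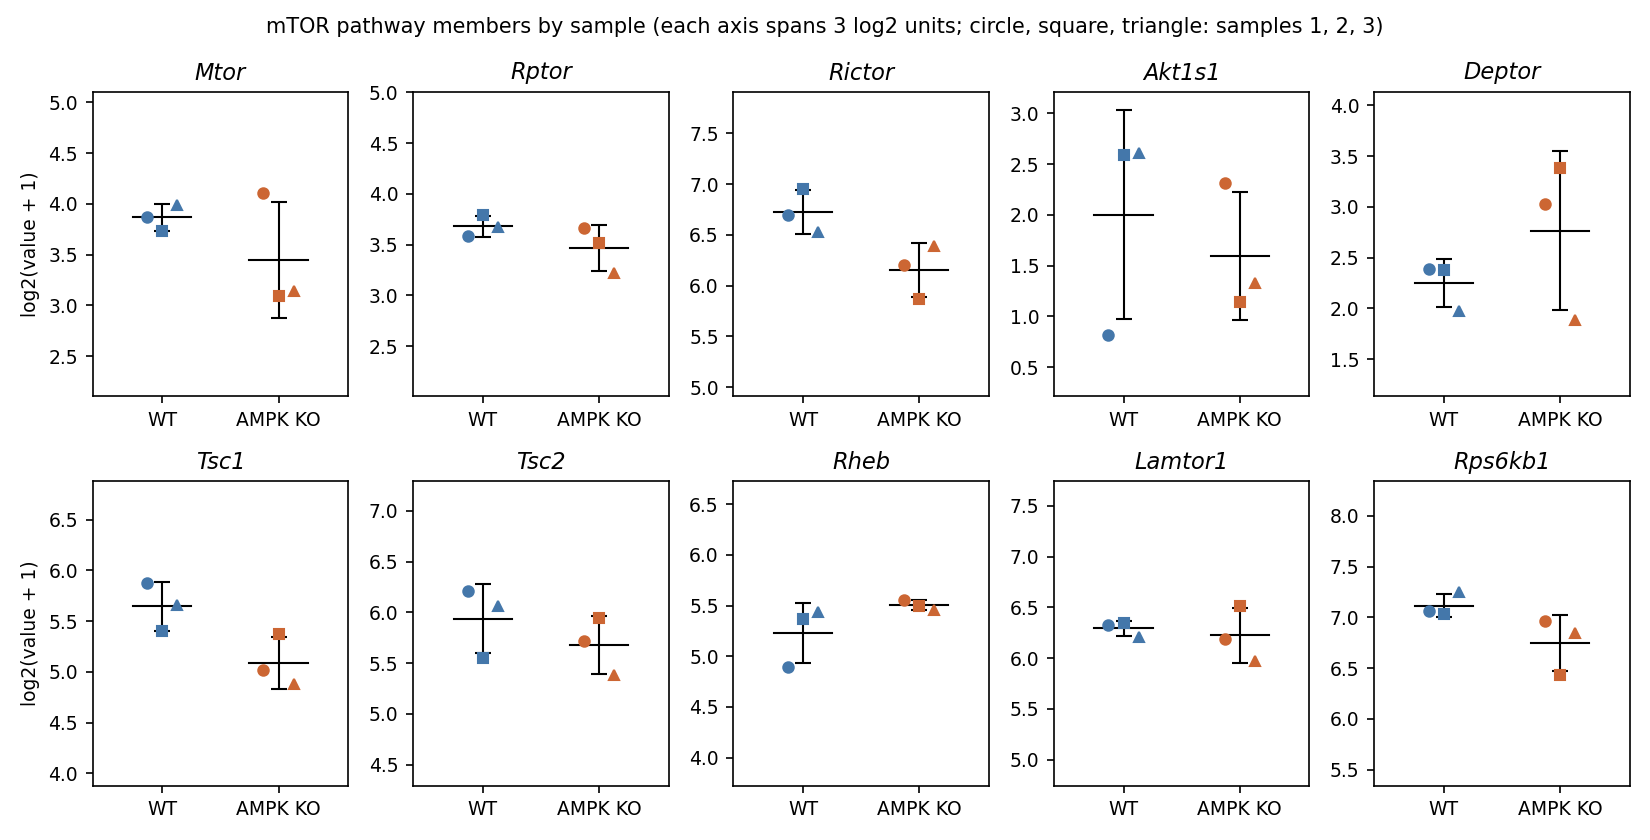
Log2 values of the 10 genes in each of the 3 WT (blue) and 3 AMPK KO (orange) samples, with 1 panel per gene. The vertical axis is log2 of the normalized CPM plus 1 and spans 3 units in every panel; lines and bars are the mean and SD. Rictor, Tsc1 and Rps6kb1 lie lower in every AMPK KO sample than in any WT sample, Rheb lies higher by a narrow margin, and Mtor, Akt1s1 and Deptor spread the most.

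The sequences just upstream of the transcription start are shown for the 4 genes whose groups did not overlap, together with that of Lamtor1, whose mean differed least between the groups. They are the 250 bases before the start as RefSeq gives it on GRCm38.p6, written 5′ to 3′ on the gene's strand, and such a sequence was found for 9 of the 10 genes. Capitals mark the letters of an E-box (CACGTG) or of a GC box (GGGCGG or, on the other strand, CCGCCC). The regions are chr15:6708131-6708380 (plus strand) for Rictor, chr2:28640983-28641232 (plus strand) for Tsc1, chr11:86544808-86545057 (minus strand) for Rps6kb1, chr5:24842362-24842611 (minus strand) for Rheb and chr7:101905587-101905836 (plus strand) for Lamtor1.
Rictor: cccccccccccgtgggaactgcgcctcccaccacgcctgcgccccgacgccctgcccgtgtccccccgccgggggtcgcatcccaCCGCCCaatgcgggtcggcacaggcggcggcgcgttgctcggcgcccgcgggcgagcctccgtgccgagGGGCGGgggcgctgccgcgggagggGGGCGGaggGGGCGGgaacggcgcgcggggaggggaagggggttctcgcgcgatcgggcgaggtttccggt
Tsc1: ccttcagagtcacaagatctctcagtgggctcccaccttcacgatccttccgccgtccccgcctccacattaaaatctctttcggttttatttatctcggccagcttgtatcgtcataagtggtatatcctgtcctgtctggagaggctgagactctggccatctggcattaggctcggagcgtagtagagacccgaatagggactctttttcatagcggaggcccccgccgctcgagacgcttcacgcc
Rps6kb1: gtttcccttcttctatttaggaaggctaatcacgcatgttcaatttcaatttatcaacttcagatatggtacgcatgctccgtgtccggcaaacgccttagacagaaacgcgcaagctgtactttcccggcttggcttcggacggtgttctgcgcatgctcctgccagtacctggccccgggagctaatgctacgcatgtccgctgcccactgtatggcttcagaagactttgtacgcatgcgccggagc
Rheb: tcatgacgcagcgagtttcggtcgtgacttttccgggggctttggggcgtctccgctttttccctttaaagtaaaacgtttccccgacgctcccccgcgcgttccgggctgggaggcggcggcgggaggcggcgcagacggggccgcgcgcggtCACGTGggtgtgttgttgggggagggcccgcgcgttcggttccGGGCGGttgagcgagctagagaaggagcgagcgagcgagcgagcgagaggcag
Lamtor1: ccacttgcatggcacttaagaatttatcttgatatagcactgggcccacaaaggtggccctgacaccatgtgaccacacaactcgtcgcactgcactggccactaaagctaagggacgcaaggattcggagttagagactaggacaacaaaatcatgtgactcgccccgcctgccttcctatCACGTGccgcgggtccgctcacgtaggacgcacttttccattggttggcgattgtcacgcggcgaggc

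The 3 genes that lay lower in AMPK KO shared none of the motifs searched. The Rictor sequence had a GC content of 81.2% and 4 GC boxes, whereas those of Tsc1 (54.4%) and Rps6kb1 (52.8%) were close to the median of 52.4% over all promoters and held neither motif. An E-box, the letters read by MYC and by TFEB and its relatives, occurred in 2 of the 9 sequences, those of Rheb and Lamtor1, and in 6.02% of the 32851 promoters. The GC box, the letters read by SP1, occurred in those of Rictor, Rheb, Mtor and Akt1s1, and in 32.7% of the promoters. The ETS letters CCGGAAG occurred in those of Mtor, Akt1s1 and Tsc2, and in 6.91% of the promoters. Neither the CLEAR element (the E-box with GT before it and AC after it, 0.240% of promoters) nor the letters of NRF1 (GCGCA followed by TGCGC, 0.782%), FoxO (GTAAACA, 3.17%) or the CRE (TGACGTCA, 1.55%) occurred in any of the 9. All motifs were searched on both strands, and a match is a description of the letters alone.

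Mtor, the kinase itself, lies at chr4:148448611-148557683 on the plus strand of GRCm38 (mm10), with 58 exons in the transcript used here. Its log2 values were 3.88, 3.73 and 3.99 in WT and 4.11, 3.10 and 3.14 in AMPK KO, from 81 to 193 reads. The highest and the 2 lowest of the 6 values were all in AMPK KO, so the groups overlapped. The means were 3.87 ± 0.13 for WT and 3.45 ± 0.57 for AMPK KO (SD over 3 samples each), and the log2 fold change was -0.42 (SE 0.33, 95% interval -1.11 to 0.28, adjusted p = 0.493). In fold terms the interval ran from 0.462 to 1.21, so it covered values on both sides of no change. Within the set of WT 1, WT 3 and AMPK KO 2 the difference was -0.84, and within the other set -0.11.

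Rptor, which encodes Raptor, the subunit that defines mTORC1 and is itself an AMPK substrate, lies at chr11:119602905-119899576 on the plus strand. The 6 samples had log2 values of 3.58, 3.79 and 3.67 in WT and 3.66, 3.52 and 3.22 in AMPK KO. The lowest value was in AMPK KO 3 and the others lay close together. For Rptor the log2 fold change was -0.21 (SE 0.29, 95% interval -0.83 to 0.40, adjusted p = 0.717). It was the member whose spread within groups was nearest to that of read counting, at 1.40 times.

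Rictor, which defines mTORC2, lies at chr15:6708379-6800401 on the plus strand and gave the smallest p of the 10. Its log2 values were 6.69, 6.95 and 6.53 in WT and 6.20, 5.87 and 6.39 in AMPK KO, from 615 to 1228 reads. Every AMPK KO value was below every WT value, by at least 0.14. The means were 6.72 ± 0.21 for WT and 6.15 ± 0.27 for AMPK KO (SD over 3 samples each), so the AMPK KO mean was 67.2% of WT on the linear scale. The log2 fold change was -0.57 (SE 0.18, 95% interval -0.96 to -0.19, adjusted p = 0.0782), and the two-sided p of an exact permutation test was 0.1, the smallest value that 3 against 3 samples allow. The difference was -0.74 and -0.66 within the 2 sets of libraries. With that division as a term, chosen after seeing the data, its log2 fold change was -0.70 with an adjusted p of 0.00101, a value that is too small, since these libraries themselves revealed the division. Over the alternatives its adjusted p ranged from 0.00101 to 0.247.

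Akt1s1 and Deptor encode inhibitory partners of mTOR. Akt1s1, which encodes PRAS40 of mTORC1, lies at chr7:44848991-44855421 and had only 7, 50 and 45 reads in WT and 47, 13 and 18 in AMPK KO. On the log2 scale the values were 0.82, 2.59 and 2.61 in WT and 2.31, 1.14 and 1.33 in AMPK KO. The lowest value of all was in WT 1, and AMPK KO 1 lay beside WT 2 and WT 3. The log2 fold change was -0.41 (SE 0.53, 95% interval -1.54 to 0.73, adjusted p = 0.708), an interval that also held the estimate of Rictor. Deptor, which binds mTOR in both complexes, lies at chr15:55112317-55259271 and had 26 reads or more in each library. This gave log2 values of 2.39, 2.38 and 1.98 in WT and 3.03, 3.38 and 1.88 in AMPK KO. AMPK KO 1 and AMPK KO 2 lay above every WT sample, and AMPK KO 3 lay below every WT sample. Deptor had a log2 fold change of 0.52 (SE 0.42, 95% interval -0.39 to 1.42, adjusted p = 0.522).

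Tsc1 encodes hamartin, which stabilizes TSC2, and lies at chr2:28641228-28691167 on the plus strand. Its log2 values were 5.88, 5.40 and 5.66 in WT and 5.01, 5.37 and 4.88 in AMPK KO, from 338 to 532 reads. All AMPK KO values were below all WT values, but the gap between AMPK KO 2 and WT 2 was 0.03, less than the 0.07 that read counting alone gives as SD. The means were 5.64 ± 0.24 for WT and 5.09 ± 0.25 for AMPK KO (SD over 3 samples each), or 67.4% of WT on the linear scale. The log2 fold change was -0.56 (SE 0.21, 95% interval of the fold 0.5 to 0.924, adjusted p = 0.134), and the exact permutation test gave p = 0.1. It was -0.70 with an adjusted p of 0.0370 when AMPK KO 2 was left out, and no other library left out brought it under the threshold. Tsc2 encodes tuberin, the subunit that acts on RHEB and that AMPK phosphorylates, and lies at chr17:24595816-24632630 on the minus strand. The log2 values of Tsc2 were 6.21, 5.55 and 6.06 in WT and 5.72, 5.94 and 5.38 in AMPK KO. The values were interleaved, with the highest in WT 1 and the lowest in AMPK KO 3. Tsc2 had a log2 fold change of -0.26 (SE 0.21, 95% interval -0.71 to 0.20, adjusted p = 0.522).

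Rheb, the GTPase that TSC2 inactivates, lies at chr5:24802823-24842624 on the minus strand. Rheb had log2 values of 4.90, 5.37 and 5.44 in WT and 5.55, 5.50 and 5.46 in AMPK KO. All AMPK KO values were above all WT values, by 0.02 at the nearest, which is less than the counting SD of 0.07, and only WT 1 stood well below the rest. The means were 5.23 ± 0.30 for WT and 5.50 ± 0.05 for AMPK KO (SD over 3 samples each), and the log2 fold change was 0.27 (SE 0.20, 95% interval -0.16 to 0.70, adjusted p = 0.471). Without WT 1 it was 0.10, with an adjusted p of 0.858.

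Lamtor1 encodes the Ragulator subunit that anchors mTORC1 signalling to the lysosome, and lies at chr7:101905904-101926675 on the plus strand. Lamtor1 had log2 values of 6.33, 6.35 and 6.21 in WT and 6.18, 6.51 and 5.98 in AMPK KO. The WT values lay between the AMPK KO values. The log2 fold change was -0.07 (SE 0.17, 95% interval -0.44 to 0.30, adjusted p = 0.858), and without AMPK KO 3 it turned to 0.05. Rps6kb1 encodes S6 kinase 1, the substrate through which mTORC1 signals to the ribosome, and lies at chr11:86498871-86544805 on the minus strand, where its last exon overlaps Rnft1 on the opposite strand by 155 bases. Rps6kb1 had log2 values of 7.06, 7.04 and 7.25 in WT and 6.96, 6.43 and 6.84 in AMPK KO, from 918 to 1467 reads. All AMPK KO values were lower than all WT values, by 0.07 at the nearest, with AMPK KO 2 the lowest. The log2 fold change was -0.37 (SE 0.17, 95% interval -0.73 to -0.01, adjusted p = 0.216). Within the set of WT 1, WT 3 and AMPK KO 2 the difference was -0.72 and within the other set -0.14. With the division as a term the adjusted p was 0.0436, under the same reservation as for Rictor.

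**Figure D2:**
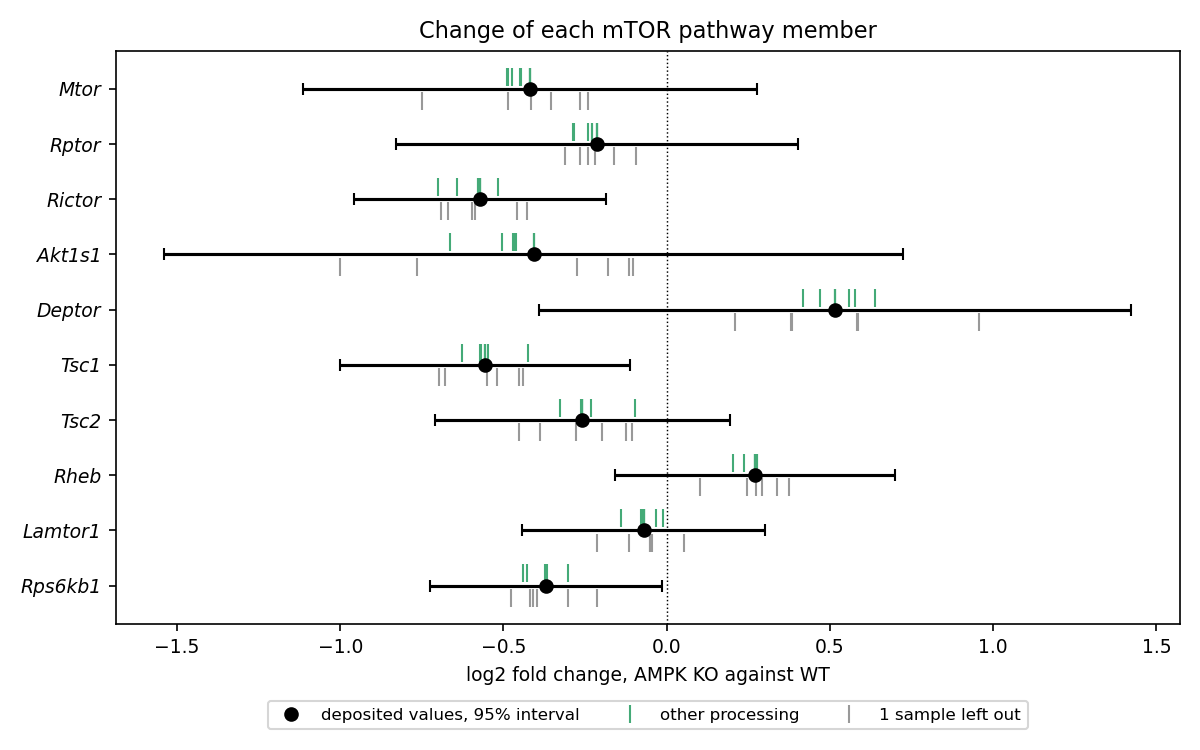
Log2 fold change of each of the 10 genes, AMPK KO against WT (horizontal axis). Black points and bars are the limma estimate and its 95% interval, green ticks the estimates under other processing and grey ticks those with 1 sample left out. The intervals of Rictor, Tsc1 and Rps6kb1 lie below 0, before adjustment over all genes, and those of the other 7 genes include 0.

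The lowest of the 6 values was in AMPK KO 3 for 5 of the 10 genes, in AMPK KO 2 for 3 and in WT 1 for 2. The highest was in AMPK KO 3 for 0 genes and in each of the other 5 samples for 2. For the 10 genes the spread within groups was 1.40 times (Rptor) to 5.28 times (Tsc2) the SD expected from read counting. With 1 library left out, the log2 fold change of Akt1s1 ran from -1.0 (without WT 1) to -0.10 (without WT 3), that of Deptor from 0.21 (without AMPK KO 2) to 0.96 (without AMPK KO 3) and that of Mtor from -0.75 (without AMPK KO 1) to -0.24 (without AMPK KO 2). For Rptor it ran from -0.31 (without AMPK KO 1) to -0.09 (without AMPK KO 3), and for Tsc2 from -0.45 (without WT 2) to -0.11 (without AMPK KO 3). For Rictor it ran from -0.69 (without AMPK KO 3) to -0.43 (without AMPK KO 2), and for Rps6kb1 from -0.48 (without AMPK KO 1) to -0.21 (without AMPK KO 2). Within the set of WT 1, WT 3 and AMPK KO 2 and within the other set, the differences were 1.20 and 0.08 for Deptor, 0.24 and -0.27 for Lamtor1, 0.33 and 0.14 for Rheb, and -0.40 and -0.45 for Tsc1. They were -0.19 and -0.00 for Tsc2, -0.11 and -0.35 for Rptor, and -0.57 and -0.76 for Akt1s1, so that Lamtor1 was the member whose sign differed between the sets.

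The balance between partners was compared as the difference of their log2 values within each sample, for 5 pairs. The difference Tsc1 minus Tsc2 was -0.33, -0.15 and -0.40 in WT and -0.71, -0.57 and -0.50 in AMPK KO. The groups did not overlap, with Tsc1 lower relative to Tsc2 in AMPK KO (mean difference -0.30), but the exact permutation test could not go below p = 0.1 (0.5 adjusted over the 5 pairs). The difference Rptor minus Rictor, which sets an mTORC1 subunit against an mTORC2 subunit, was -3.11, -3.17 and -2.85 in WT and -2.54, -2.35 and -3.17 in AMPK KO. AMPK KO 1 and AMPK KO 2 lay above every WT sample but AMPK KO 3 lay below them all, and the mean difference of 0.36 had an exact permutation p of 0.4 (0.667 adjusted). The difference Rheb minus Tsc2 was -1.31, -0.19 and -0.62 in WT and -0.17, -0.44 and 0.08 in AMPK KO. The groups overlapped, with a mean difference of 0.53 and an exact permutation p of 0.2 (0.5 adjusted). For Mtor minus Akt1s1 the mean difference between the groups was -0.01, and for Rps6kb1 minus Rps6kb2 it was 0.44, with overlapping groups and exact permutation p values of 1 and 0.7. With 1 library left out, Mtor minus Akt1s1 ran from -0.37 (without WT 2) to 0.59 (without WT 1), Rptor minus Rictor from 0.19 (without AMPK KO 2) to 0.60 (without AMPK KO 3), Rheb minus Tsc2 from 0.23 (without WT 1) to 0.79 (without WT 2) and Rps6kb1 minus Rps6kb2 from -0.05 (without AMPK KO 1) to 1.11 (without AMPK KO 2). The last pair was 0.87 with a pseudocount of 0.25.

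**Figure D3:**
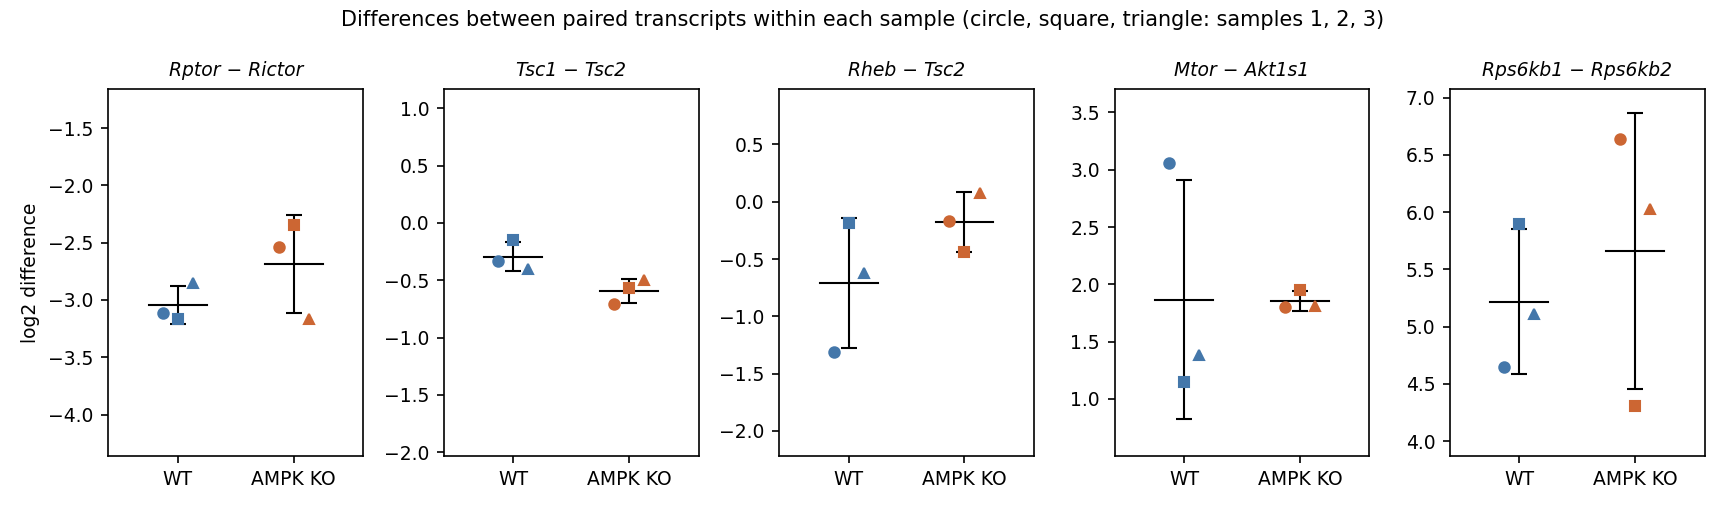
Difference of the log2 values of 2 transcripts within each sample, for 5 pairs, in WT (blue) and AMPK KO (orange). The vertical axis is the log2 difference, the axes span 3.2 units in every panel, and lines and bars are the mean and SD. Tsc1 minus Tsc2 alone has groups that do not overlap.

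The other genes of the pathway were taken from 8 lists, which held 84 genes in the files beside the 10, of which 77 were tested. Of these, 44 were higher and 33 lower in AMPK KO, 0 passed the adjusted threshold as higher and 2 as lower (Pik3r1 and Pdcd4), and 17 had groups that did not overlap (22.1%, against 25.6% of all genes tested). The share that passed was 2.60%, against the 5.65% of all genes tested, and their median log2 fold change was 0.06. Pdcd4 encodes an inhibitor of the translation initiation factor eIF4A that S6 kinase marks for degradation. Pdcd4 had log2 values of 8.10, 7.86 and 8.12 in WT and 7.35, 7.16 and 7.21 in AMPK KO. All AMPK KO values were lower, and its log2 fold change was -0.78 (SE 0.14, adjusted p = 0.00592). The call was lost without WT 1 (adjusted p = 0.0660), without WT 3 (0.0656) and with a replicate block (0.0640). Pik3r1 encodes the regulatory p85 alpha subunit of PI3-kinase, which feeds into AKT above TSC2. Pik3r1 had log2 values of 7.96, 7.66 and 7.82 in WT and 7.23, 7.19 and 7.27 in AMPK KO. The groups did not overlap, and its log2 fold change was -0.59 (SE 0.14, adjusted p = 0.0268). The call was lost without WT 1 (adjusted p = 0.152), without WT 3 (0.129), without AMPK KO 1 (0.114) and with a replicate block (0.137).

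Each list is described by its counts and median, with no test of the list itself. Among the 12 mTORC1 and mTORC2 subunits and assembly factors, 8 were lower and 4 higher (median log2 fold change -0.09), from Tti2, an assembly factor of PIKK kinases (-0.60, SE 0.21, adjusted p = 0.116), to Prr5, a subunit of mTORC2 with only 1 to 37 reads (1.30, SE 0.48, adjusted p = 0.127). Since 1 is added before the logarithm, the estimate for Prr5 is compressed, and it was 2.16 with a pseudocount of 0.25 and 2.74 with limma voom on recovered reads (adjusted p = 0.141 and 0.174). Among the 4 tested genes of the TSC complex and the Rheb GTPases, 3 were lower and 1 higher (median -0.24), and the lowest and highest were Tsc1 and Rheb themselves. Around Lamtor1, 9 of the 12 tested genes of Ragulator, the Rag GTPases and folliculin were higher and 3 lower (median 0.29). In that list Lamtor1 was the lowest and Rraga, which encodes the Rag GTPase A that recruits mTORC1 to the lysosome, the highest (0.95, SE 0.32, adjusted p = 0.0999). No gene of these 3 lists passed the adjusted threshold.

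Upstream, 9 of the 16 tested genes of GATOR, KICSTOR and the amino acid sensors were higher and 7 lower (median 0.12), from Depdc5 of GATOR1 (-0.72, SE 0.42, adjusted p = 0.340) to Sec13 of GATOR2 (0.92, SE 0.44, adjusted p = 0.247). Of the 15 genes of the PI3K-AKT input and REDD1, 6 were higher and 9 lower (median -0.13). The highest was Pik3r5, a regulatory subunit of PI3-kinase gamma (0.77, SE 0.24, adjusted p = 0.0768), and Pik3r1 was the gene that passed. Genes of amino acid carriers were higher for 6 of 7 (median 0.30), from Slc43a2 (-0.31, SE 0.22, adjusted p = 0.457) to Slc7a5, a leucine carrier (0.84, SE 0.41, adjusted p = 0.25). Of the AMPK subunits, 3 of the 5 tested were higher and 2 lower (median 0.04), from Prkaa1 to Prkab2 (0.36, SE 0.32, adjusted p = 0.557). Downstream, the 16 tested substrates of mTORC1 and their effectors divided evenly, with 8 higher and 8 lower, from Rps6kb2, the second S6 kinase with 3 to 40 reads (-0.81, SE 0.53, adjusted p = 0.410), to Eef2k, the kinase of elongation factor 2 that S6 kinase inhibits (0.87, SE 0.37, adjusted p = 0.190).

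Several of these values rested on single libraries. Without AMPK KO 2, Rraga (1.29, adjusted p = 0.00674), Slc7a5 (1.36, 0.0139), Sec13 (1.43, 0.0203) and Pik3r5 (0.87, 0.0342) passed the threshold, and without WT 2 Rraga (0.0288) and Pik3r5 (0.0391) did. Without AMPK KO 3 the estimates were 0.67 for Rraga, 0.45 for Slc7a5, 0.62 for Sec13 and 0.59 for Pik3r5. With 1 library left out, Depdc5 ran from -1.08 (without AMPK KO 3) to -0.37 (without AMPK KO 1), Slc43a2 from -0.46 (without WT 2) to -0.11 (without WT 1), Prkab2 from 0.09 (without WT 2) to 0.63 (without WT 1) and Eef2k from 0.56 (without WT 1) to 1.03 (without WT 3). Rps6kb2, at its low depth, ran from -1.33 (without AMPK KO 2) to -0.43 (without AMPK KO 1), and was -0.36 with the division as a term, -1.24 with a pseudocount of 0.25 and -1.54 with limma voom. With the division as a term Rraga (0.61, adjusted p = 0.0346) and Pik3r5 (0.63, 0.0487) passed as well.

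**Figure D4:**
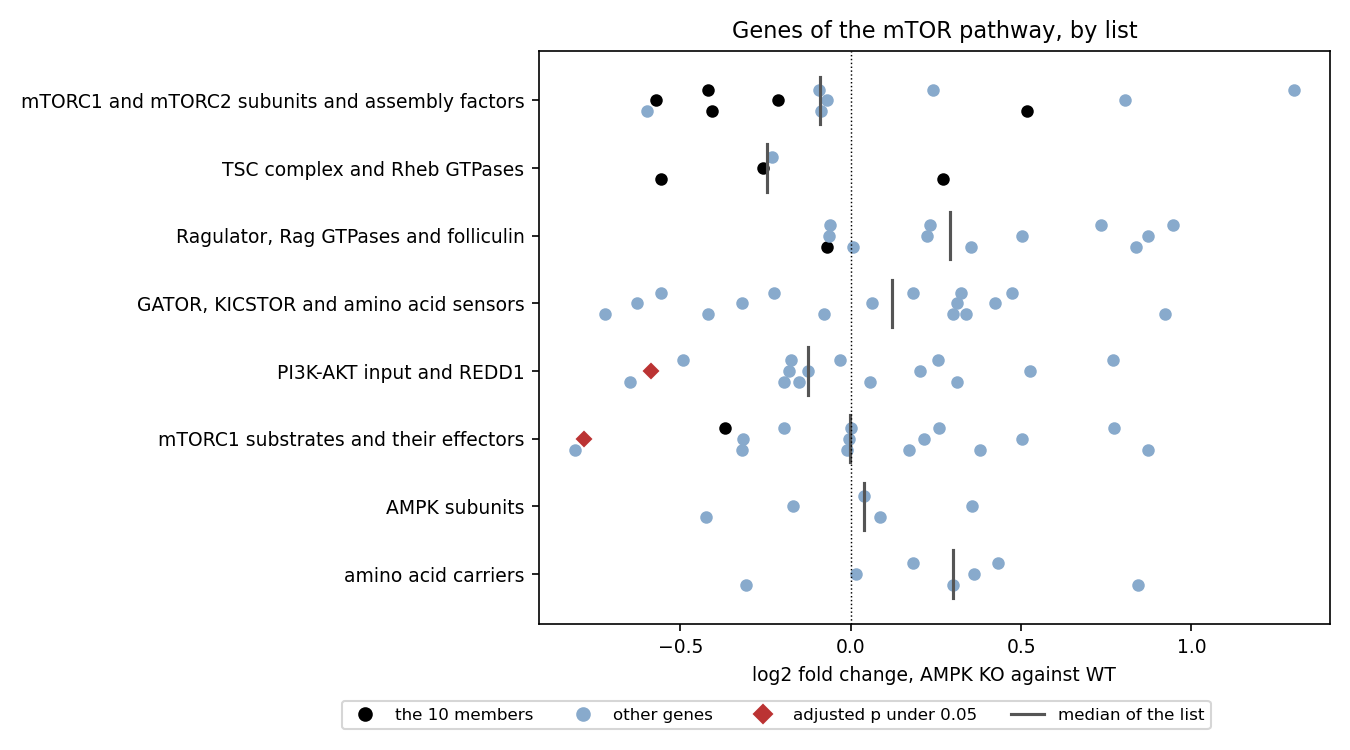
Log2 fold change, AMPK KO against WT (horizontal axis), of each tested gene in the 8 pathway lists. Black points are members among the 10 genes, blue points other genes, red diamonds the 2 genes past the adjusted threshold (Pik3r1 and Pdcd4), and grey lines the median of each list. Ragulator and its partners and the amino acid carriers lie mostly to the right of 0, with 9 of 12 and 6 of 7 genes higher.

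Markers of cell types moved along the same comparison. Of 12 tested T cell markers, 11 were lower and 1 higher in AMPK KO, 3 of them passing the threshold (Cd3e, Cd3g and Cd28, named after their values were seen), with a median log2 fold change of -0.32, and their summed level was 3247 to 3465 (normalized CPM) in WT and 2521 to 2974 in AMPK KO. The call of Cd3g was kept in 13 of 15 alternatives and lost with the replicate block (adjusted p = 0.0664) and without WT 1 (0.0590). That of Cd3e was kept in 9 and lost with the block (0.128), with no filter (0.0514) and without WT 1 (0.122), WT 3 (0.121), AMPK KO 1 (0.114) or AMPK KO 3 (0.0692). That of Cd28 was kept in 7, with adjusted p values of up to 0.245 (without WT 1). The median of the 10 mTOR genes, -0.31, lay beside that of the T cell markers. Of 10 macrophage and monocyte markers, 10 were higher, 5 of them passing, with summed levels of 351 to 409 in WT and 626 to 1225 in AMPK KO. Of 6 tested neutrophil markers, 6 were lower, 2 of them passing, with summed levels of 777 to 896 and 502 to 742. Of 5 tested plasma cell markers, 4 were higher, with summed levels of 196 to 246 and 509 to 540, and 1 of them passed, Jchain (log2 fold change 2.60, adjusted p = 5.8e-08, named after its values were seen), while Irf4, the 1 that was lower, had -0.35. Jchain alone had 56.1 to 63.4 in WT and 327 to 392 in AMPK KO. The sum of the other plasma cell markers was 139 to 183 and 149 to 183. The rise in the summed level of the list thus follows Jchain, but the other markers did not all stay level. Irf4 had the most reads of these others (903 to 1519) and was lower. Mzb1 (log2 fold change 0.75, limma adjusted p = 0.0566), Prdm1 (0.54, 0.325) and Sdc1 (0.83, 0.302) were higher. Of these 3, only Sdc1 had overlapping groups. The B cell markers were divided (3 of 6 tested higher, 231 to 252 and 211 to 270), and 1 of 4 erythroid markers was higher (3470 to 4074 and 2467 to 4933). Of the NK cell markers, 3 of 3 tested were higher (45.5 to 76.1 and 68.3 to 117). Ncr1, an NK cell marker below the filter with 0 to 19 reads, had 18.7% of WT. The CD8 T cell markers were higher for 2 of 2 (231 to 305 and 321 to 376). Cd4 had log2 values of 6.72, 6.83 and 6.53 in WT and 6.55, 6.31 and 6.14 in AMPK KO. Cd8b1 had 7.17, 7.61 and 7.58 in WT and 7.59, 7.98 and 7.92 in AMPK KO, above Cd4 in every library. Cd8a lay above Cd4 in WT 3 and in every AMPK KO library. No marker found in the files was at 0 in every library. In bulk samples, fewer cells of a type and less RNA per cell cannot be told apart, and the part of these markers in the values of the mTOR genes was not tested.

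Among the 6142 other genes with a mean log2 value of at least 4, those whose values followed Rictor most closely over the 6 samples were Fbxo32, S1pr1, Lrch3, Mllt3 and Ttc14. The root mean square difference from the centred Rictor values was 0.0686, 0.0697, 0.0738, 0.0785 and 0.0847 log2 units, in that order. Since they were chosen for values like those of Rictor, their differences between the groups resemble its own by construction and are not read as a result.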

How the data were processed

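Libraries were made with the Lexogen QuantSeq kit from 3 WT and 3 AMPK KO samples. The authors deposited log2 values for genes by symbol, namely TMM-normalized CPM with 1 added before the logarithm. The submitters' processing notes name Bowtie2, bedtools and mm10, while versions, annotation and counting strand are not given in the sources used here. Reads were recovered from the steps between values, since 100% of values of up to 100 reads lay within 0.1 of a whole number. Genes with a mean of at least 1 were tested on the deposited values with limma 3.58.1 in R 4.3.3 (lmFit and eBayes with trend, genotype only, two-sided, Benjamini-Hochberg over all 11279 genes, threshold 0.05). The procedure was run on simulated counts drawn independently for each library. Those counts held neither the division of the libraries nor the Rn45s difference, so that run does not cover them. For differences between partners, an exact permutation test (two-sided) was used, which with 3 against 3 cannot go below 0.1. Of the 23238 symbols, 35 stood on more than 1 line (79 lines). Intervals are 95%.

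The 10 genes, the lists and the tests were chosen with earlier results of these data known. Named were all 10 genes, Prkaa1, from each list the genes past the threshold and those with the highest and the lowest change, and the 5 genes nearest to the member of smallest p, by root mean square difference. The values of 1 gene that this rule names are not reported here. Alternatives were quantile normalization, no filter, a filter of at least 3, a replicate block, robust eBayes, limma voom on recovered reads, scaling to reads outside Rn45s, a pseudocount of 0.25, leaving out each library and, chosen after seeing the data, a term for the division of the libraries. Gene positions and exons came from GENCODE M21 (GRCm38) and promoters from RefSeq (GRCm38.p6). Other steps ran in Python 3.11.15 (pandas 2.3.3, numpy 2.4.6, scipy 1.17.1, matplotlib 3.10.9).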

Additional observations from a re-analysis of the deposited data

How the results depend on the processing

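The number of genes past the threshold was 637 on the deposited values, 308 with no filter, 102 with the replicate block, 1428 with the library division as a term, and 127 to 1246 with 1 library left out. The lowest count was without WT 1 and the highest without AMPK KO 2, and it was 140 without WT 3 and 172 without AMPK KO 1. Scaling to reads outside Rn45s gave 722 genes, of which 32.5% were higher, against 45.1% on the deposited values. The number of the 10 genes past the threshold was 0, but 2 (Rictor and Rps6kb1) with the division term and 0 to 1 with 1 library left out, the 1 being Tsc1 without AMPK KO 2. The number of other pathway genes past it was 2, but 3 with quantile normalization, 3 with limma voom, 4 with a filter of at least 3, 4 with robust eBayes, 9 with the division term, 0 with the replicate block and 0 to 12 with 1 library left out. It was 0 without WT 1 or WT 3, 1 without AMPK KO 1, 6 without WT 2 and 12 without AMPK KO 2. The cause of these shifts was not tested. The direction of the 10 genes was kept in 147 of 148 estimates, the exception being Lamtor1, which ranged from -0.21 to 0.0535 with 1 library left out and was above 0 without AMPK KO 3. Akt1s1 and Deptor were below the filter of at least 3. The differences between partners kept their sign in 39 of 45 estimates, all but those of Mtor minus Akt1s1 (5) and Rps6kb1 minus Rps6kb2 (1). Samples of the same number shared no deviations (correlations of -0.22, -0.53 and -0.31 over 6143 genes), so the numbers do not pair them, and the replicate block gave 0 of the 10 genes. The lowest depth was that of Akt1s1, with 7 reads in WT 1.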

Other observations

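Rictor lies on the chromosome that carries the floxed gene, with 1.53 Mb between the end of Prkaa1 and its start (GRCm38). The 5 tested genes between them were read as a description of that interval. Ttc33 had a log2 fold change of 0.18, Ptger4 of 0.13, 5430437J10Rik of 0.00 and Dab2 of 0.83. Fyb, which encodes an adaptor of T cell receptor signalling, had -0.37 with groups that did not overlap (limma, adjusted p = 0.136). Of the 5, 1 was lower and 0 passed the adjusted threshold, which 5.65% of all genes tested passed. Groups that did not overlap occurred in 25.6% of all genes tested. Fyb is the nearest of the 5 to Rictor, which had -0.57. Deptor lies farther along the same chromosome, from position 55112317, and had 0.52. The part of position in these values was not tested.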
